A study of Sus scrofa with 19 samples.

Results

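The 9 genes described here, C1QA, C1QC, MSR1, MRC1, CSF1R, MS4A7, ITGAM, CD86 and SPI1, are genes that tissue macrophages use to recognise, take up and present material and to keep their identity. A gene was a member if a probe set of the array carried its symbol and no other in the array annotation. Each of the 9 had 1 such probe set, among 12217 genes with a probe set of their own and 27558 probe sets in all. RNA of whole adrenal glands from 19 male piglets, 1 from each sow, was hybridised to 1-colour Affymetrix arrays, 1 array per piglet. The design asks how the sow's diet and an inflammatory challenge of the sow late in gestation relate to gene expression in the gland of her offspring.

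Sows ate a diet with fish oil, a diet with microalgae or a control diet, beginning at gestation day 75. On gestation day 112 they received either lipopolysaccharide (LPS), the bacterial cell wall component that provokes inflammation, or saline. The fish oil diet is represented by 4 piglets after maternal LPS (piglets 10, 19, 20 and 24) and 4 after maternal saline (9, 11, 13 and 18). The microalgae diet has 2 piglets after maternal LPS (7 and 23) and 3 after maternal saline (12, 15 and 22). The control diet has 3 piglets after maternal LPS (6, 16 and 17) and 3 after maternal saline (8, 14 and 21). Every piglet was weaned at 21 days, was itself given LPS at 28 days and was killed 2 hours later. All values therefore describe glands in the first hours of an inflammatory response, and no unchallenged gland is among them. The piglets come from different sows, so the p-values measure the spread between litters as well as between piglets.

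Macrophages reside in the cortex and medulla of the adrenal gland, where they lie along the sinusoids, clear dying cells and respond to bacterial products. Their survival depends on signalling through the receptor CSF1R, and their gene programme is set by the transcription factor PU.1, which SPI1 encodes. C1QA and C1QC encode chains of C1q, the recognition molecule of the classical complement pathway, and macrophages are its main source in many tissues. In the RefSeq annotation of the pig assembly Sscrofa11.1, C1QA, C1QB and C1QC are neighbours on chromosome 6, with 0 other genes starting between them. MSR1 and MRC1 are surface receptors for uptake, MS4A7 is a membrane protein of mature macrophages, CD86 gives T cells their second signal, and ITGAM encodes the integrin subunit CD11b, which neutrophils, monocytes and natural killer cells also carry.

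The signal of the whole gland mixes all its cells. A lower log2 value can mean fewer macrophages or less RNA per macrophage, and these cannot be told apart in bulk tissue. Values are log2 signals as deposited, and each gene is compared only with itself, since levels of different probe sets are not comparable. All 9 members passed the filter on low values, a mean log2 signal of at least 3.23 over all arrays, which removed 25% of the probe sets. The lowest mean of any member in any group was 3.59, for ITGAM after the control diet and maternal saline, and in that group piglet 21 lay at 3.05, under the filter value. Other genes used to recognise macrophages were also measured. Of 77 listed myeloid genes that are not members, 42 had a probe set of their own and 38 passed the filter, among them VSIG4, MARCO, SIGLEC1, TYROBP and ADGRE1. CD163 and CD68 were not among the genes with an own probe set and were not analysed here. For the gland itself, 5 listed cortex genes and 7 listed medulla genes passed the filter. The spread of the arrays was lowest in piglets 24 and 6, with interquartile ranges of 2.27 and 2.39 log2, against a highest range of 2.65 in piglet 20. Piglet 15 followed at 2.44. Next were piglets 23 and 7, the microalgae glands after maternal LPS, at 2.47 and 2.49, and their array medians of 4.52 each were among the highest.

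None of the 9 members passed the adjusted threshold of 0.05 in any of the 13 comparisons tested with limma, and their lowest adjusted p was 0.346. Over all 20668 probe sets tested, 0.00968% passed for maternal LPS against saline over the 3 diets and 0% in each of the other comparisons. The differences given below are therefore measurements with their errors, none of which passed that test. A missed threshold does not show that groups were alike, since the intervals are wide: for fish oil against control after maternal saline, for example, the upper limit of the 95% confidence interval lay above 0.50 log2 for all 9. The 6 groups accounted for between 28.6% (C1QA) and 49.4% (MRC1) of the variance of a member, against a median of 24.4% over all probe sets tested.

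**Figure D1:**
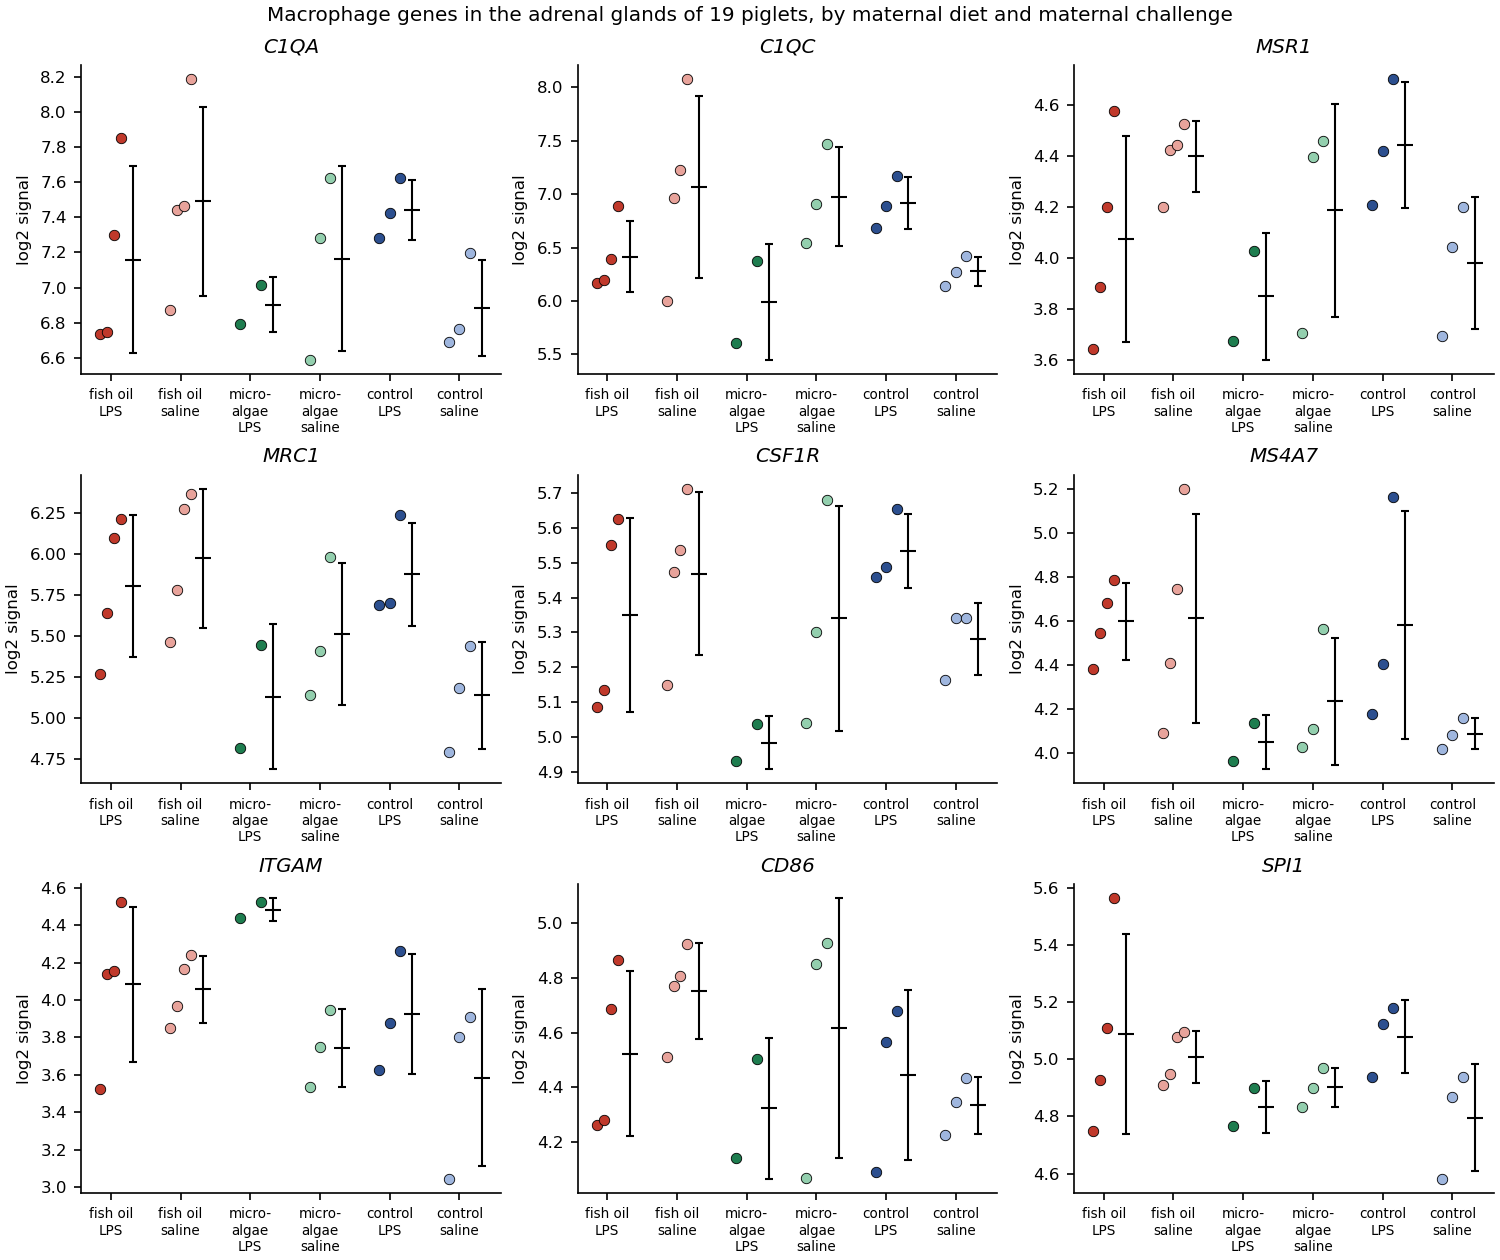
Log2 signal of each member (vertical axes, 1 panel per gene, each with its own scale) in the 6 groups of maternal diet and maternal challenge. Points are piglets, and the dash with bars is the group mean ± SD; the microalgae group after maternal LPS has 2 piglets. The fish oil group after maternal saline had the highest mean for 5 of the 9 genes, and the microalgae group after maternal LPS had the lowest mean for 6.

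C1QA, the A chain of C1q, had log2 values of 7.85, 6.74, 6.75 and 7.30 in the fish oil glands after maternal LPS (piglets 10, 19, 20 and 24), against 7.44, 7.46, 6.87 and 8.19 after maternal saline (piglets 9, 11, 13 and 18). In the microalgae glands it was 7.01 and 6.79 after maternal LPS, against 7.63, 7.28 and 6.59 after maternal saline. In the control-diet glands it was 7.43, 7.62 and 7.28 after maternal LPS, against 7.20, 6.76 and 6.69 after maternal saline. Only in the control diet did the challenge groups not overlap, with every LPS gland above every saline gland. Piglet 18 was the highest of all 19 glands and piglet 22 the lowest. The largest step between neighbours in the order of the 6 group means was 0.28 log2, less than the within-group SD of 0.44, so no adjacent groups stood apart beyond their spread.

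C1QC, the C chain of the same molecule, ranged most widely of the 9 genes, over 2.47 log2 between piglet 18 and piglet 23. It had 6.89, 6.20, 6.40 and 6.17 in the fish oil glands after maternal LPS, against 6.97, 7.23, 6.002 and 8.08 after maternal saline. The microalgae glands had 6.37 and 5.61 after maternal LPS, against 7.47, 6.91 and 6.55 after maternal saline, without overlap. In the control diet the order was the other way round, again without overlap, with 6.68, 7.17 and 6.89 after maternal LPS, against 6.42, 6.14 and 6.27 after maternal saline. Its within-group SD of 0.51 was larger than that of 91.9% of all probe sets tested, and the largest step between neighbouring group means was 0.50 log2, about that SD.

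Of the uptake receptors, MRC1, the mannose receptor, had 6.10, 5.27, 6.21 and 5.64 in the fish oil glands after maternal LPS, against 6.27, 5.78, 5.46 and 6.37 after maternal saline. The microalgae glands had 4.82 and 5.44 after maternal LPS, against 5.98, 5.41 and 5.14 after maternal saline. The control-diet glands had 6.24, 5.70 and 5.69 after maternal LPS, against 5.18, 4.79 and 5.44 after maternal saline. MRC1 was lowest in the microalgae group after LPS, with a mean of 5.13, and nearly the same in the control group after saline, with 5.14. MSR1, the scavenger receptor that takes up modified lipoproteins and bacterial surface components, averaged 4.08 ± 0.40 in the fish oil glands after maternal LPS and 4.40 ± 0.14 after maternal saline (SD, n = 4 each). It was 3.67 and 4.03 in the 2 microalgae glands after maternal LPS, against 4.19 ± 0.42 after maternal saline (SD, n = 3). In the control diet it averaged 4.45 ± 0.25 after maternal LPS and 3.98 ± 0.26 after maternal saline (SD, n = 3 each), without overlap, the lowest LPS gland at 4.21 and the highest saline gland at 4.20.

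CSF1R, the receptor for the macrophage growth factors CSF1 and IL34, had 5.63, 5.13, 5.09 and 5.55 in the fish oil glands after maternal LPS, against 5.54, 5.47, 5.15 and 5.71 after maternal saline. The microalgae glands had 4.93 and 5.04 after maternal LPS, the lowest mean of the 6 groups, against 5.68, 5.30 and 5.04 after maternal saline. The control-diet glands had 5.66, 5.49 and 5.46 after maternal LPS, the highest mean, against 5.34, 5.16 and 5.34 after maternal saline. The step of 0.30 log2 between the control saline group and the microalgae LPS group exceeded the within-group SD, a single gap in the order of the 6 means. The spread of CSF1R was narrow, with a within-group SD of 0.22 and a whole range of 0.78 log2. SPI1, the transcription factor of the myeloid lineage, varied still less within groups, with an SD of 0.20. It averaged 5.09 ± 0.35 in the fish oil glands after maternal LPS, where piglet 10 reached 5.56, and 5.01 ± 0.09 after maternal saline (SD, n = 4 each). It was 4.90 and 4.77 in the microalgae glands after maternal LPS, against 4.90 ± 0.07 after maternal saline, and in the control diet it averaged 5.08 ± 0.13 after maternal LPS and 4.80 ± 0.19 after maternal saline (SD, n = 3 each).

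MS4A7 averaged 4.60 ± 0.17 in the fish oil glands after maternal LPS and 4.61 ± 0.48 after maternal saline (SD, n = 4 each). It was 4.14 and 3.96 in the microalgae glands after maternal LPS, against 4.23 ± 0.29 after maternal saline (SD, n = 3). In the control diet it averaged 4.58 ± 0.52 after maternal LPS, where piglet 17 reached 5.16, and 4.09 ± 0.07 after maternal saline (SD, n = 3 each). The largest step between neighbouring group means of MS4A7, 0.35 log2 between control LPS and microalgae saline, was just above its within-group SD of 0.34. CD86, the costimulatory ligand, averaged 4.52 ± 0.30 in the fish oil glands after maternal LPS and 4.75 ± 0.17 after maternal saline (SD, n = 4 each). It was 4.51 and 4.14 in the microalgae glands after maternal LPS, against 4.62 ± 0.47 after maternal saline (SD, n = 3), and in the control diet 4.45 ± 0.31 after maternal LPS, against 4.34 ± 0.10 after maternal saline (SD, n = 3 each). The group means of CD86 spanned only 0.43 log2, and no step between neighbours in their order exceeded 0.14.

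ITGAM was ordered differently from the other members. It had 3.52, 4.16, 4.14 and 4.52 in the fish oil glands after maternal LPS, against 3.97, 3.85, 4.16 and 4.24 after maternal saline. The 2 microalgae glands after maternal LPS had 4.52 and 4.44, the highest group mean of this gene, against 3.75, 3.95 and 3.54 after maternal saline. The control-diet glands had 3.63, 4.26 and 3.88 after maternal LPS, against 3.80, 3.91 and 3.05 after maternal saline. The microalgae group after maternal LPS, which had the lowest mean for C1QC, MSR1, MRC1, CSF1R, MS4A7 and CD86, was thus the highest for ITGAM, and the step of 0.40 log2 to the next group exceeded its within-group SD of 0.32. That next group, fish oil after maternal LPS, still overlapped with it, since piglet 24 had 4.52 and piglet 23 had 4.44. Piglets 7, 24 and 23, the highest for ITGAM, also had the highest array medians, 4.524, 4.522 and 4.519. Piglet 6 came next at 4.512, with an ITGAM value of 3.63. Over all 19 glands ITGAM had r = 0.45 with the array median (permutation p = 0.0525, adjusted p = 0.415), and 0.34 within groups. The part of array level in the order of ITGAM was not tested on its own.

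Fish oil was set against the control diet among the piglets of saline-treated sows. In these glands 9 of 9 members had higher values with fish oil, by 0.19 to 0.83 log2 and a median of 0.47, where the median over all probe sets tested was 0.0047. MRC1 had the largest difference, 0.83 ± 0.28 (SE) or 1.78-fold, with an adjusted limma p of 1. C1QC differed by 0.79 ± 0.35 and MS4A7 by 0.52 ± 0.24 (SE, adjusted p = 1 for each). Before adjustment these 3 of 9 members lay under 0.05 in this direction, against 1.13% of all probe sets. The 4 fish oil glands lay above all 3 control glands for MRC1 and CD86, 2 of 9 members, against 2.21% of all probe sets. For the other members the groups overlapped, for C1QA, C1QC, CSF1R and MS4A7 through piglet 13, the lowest of the fish oil glands. Piglet 18 carried much of the C1q differences, which were 0.38 for C1QA and 0.45 for C1QC without it, against 0.61 and 0.79 with it. Most of the 9 genes vary together between glands, ITGAM excepted and SPI1 in 1 pair only, as described below, so they cannot be read as 9 separate observations.

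Genes of other cells were measured in the same glands. Of the 38 listed myeloid genes outside the members, 31 had higher values with fish oil after maternal saline and 7 lower, and 0 passed the adjusted threshold. The list of other macrophage genes had 11 of 12 higher, led by MPEG1, a pore-forming protein of phagocytes, at 0.58 ± 0.20 (SE, limma, adjusted p = 1), and 8 of 9 scavenger and uptake receptors were higher. FCER1G, the signalling chain of Fc receptors, differed by 0.62 ± 0.27 (SE, limma, adjusted p = 1). Of the T and natural killer cell genes 10 of 13 were higher, with NKG7 of cytotoxic granules at 0.62 ± 0.16 and CD2 at 0.72 ± 0.33 (SE). The mean level of that list, relative to its average over the 19 glands, was -0.18 to 0.23 log2 in the fish oil glands and -0.18 to -0.043 in the control glands. The list of fibroblast and capsule genes ran the other way, with 9 of 12 lower, among them COL6A3 at -0.70 ± 0.19, COL5A2 at -0.49 ± 0.15 and COL1A2 at -1.26 ± 0.50 (SE). Its level was -0.76 to 0.048 in the fish oil glands and -0.31 to 0.86 in the control glands. Neutrophil genes were split, 5 of 9 higher, with a level of -0.047 to 0.019 in the fish oil glands and -0.32 to 0.051 in the control glands. The part of these other cells in the members' differences was not tested.

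After maternal LPS the same diet comparison gave no common direction. Fish oil glands had higher values for 4 members and lower for 5, with a median of -0.070 log2, and the groups overlapped for all 9. The median was -0.17 without piglet 10, where 2 members were higher, and -0.011 without piglet 19. The widest differences were those of C1QC, -0.50 ± 0.35, and MSR1, -0.37 ± 0.22, and MRC1 differed by -0.070 ± 0.28 (SE).

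Maternal LPS was set against saline within each diet. In the control diet, whose saline glands also serve the fish oil comparison above, 9 of 9 members had higher values after maternal LPS, by 0.11 to 0.74 log2 and a median of 0.46, where all probe sets had a median of 0.0016. For C1QA, C1QC, MSR1, MRC1, CSF1R and MS4A7 all 3 LPS glands lay above all 3 saline glands. These are 6 of 9 members, against 3.06% of all probe sets, and 6 genes that vary together. MRC1 differed by 0.74 ± 0.30 (SE) or 1.67-fold, with an adjusted limma p of 1. It was the only member under an unadjusted 0.05, which 0.982% of all probe sets reached in this direction. C1QA differed by 0.56 ± 0.33, C1QC by 0.64 ± 0.37 and MS4A7 by 0.49 ± 0.26 (SE). CD86 differed least, by 0.11 ± 0.23 (SE), and without piglet 6 it was -0.0054. In each of the 3 control-diet saline glands, piglets 8, 14 and 21, 0 of 9 members lay above the gene's own median over the 19 glands. Some lay at that median, MSR1 (4.20) and CSF1R (5.34) in piglet 8, and CSF1R (5.34) and SPI1 (4.94) in piglet 21. Both comparisons rest on these 3 piglets.

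In the fish oil diet, 7 of 9 members had lower values after maternal LPS than after saline, with a median of -0.17 log2, and all 9 overlapped. That median rests on single glands, since it was -0.038 without piglet 18, -0.047 without piglet 19 and -0.096 without piglet 9, against -0.31 without piglet 13 and -0.27 without piglet 10. It was -0.071 with the medulla score as a covariate and -0.27 with array weights. C1QC differed by -0.65 ± 0.32 and C1QA by -0.33 ± 0.28 (SE). In the microalgae diet 8 of 9 had lower values after maternal LPS, with a median of -0.29, which was -0.55 without piglet 22, -0.14 without piglet 12 and -0.15 without piglet 23. C1QC differed by -0.99 ± 0.42 (SE, limma, adjusted p = 0.390), the only member under an unadjusted 0.05 in this direction, against 5.81% of all probe sets. C1QC and CSF1R were lower in both LPS glands than in all 3 saline glands, 2 of 9 members, against 14.7% of all probe sets. ITGAM was higher by 0.74 ± 0.28 (SE, limma, adjusted p = 0.346) and was under an unadjusted 0.05, which 5.86% of all probe sets reached in this direction. It was also the only member higher without overlap, 1 of 9, against 16.9% of all probe sets. With 2 glands against 3 the member counts here lie close to these backgrounds.

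**Figure D2:**
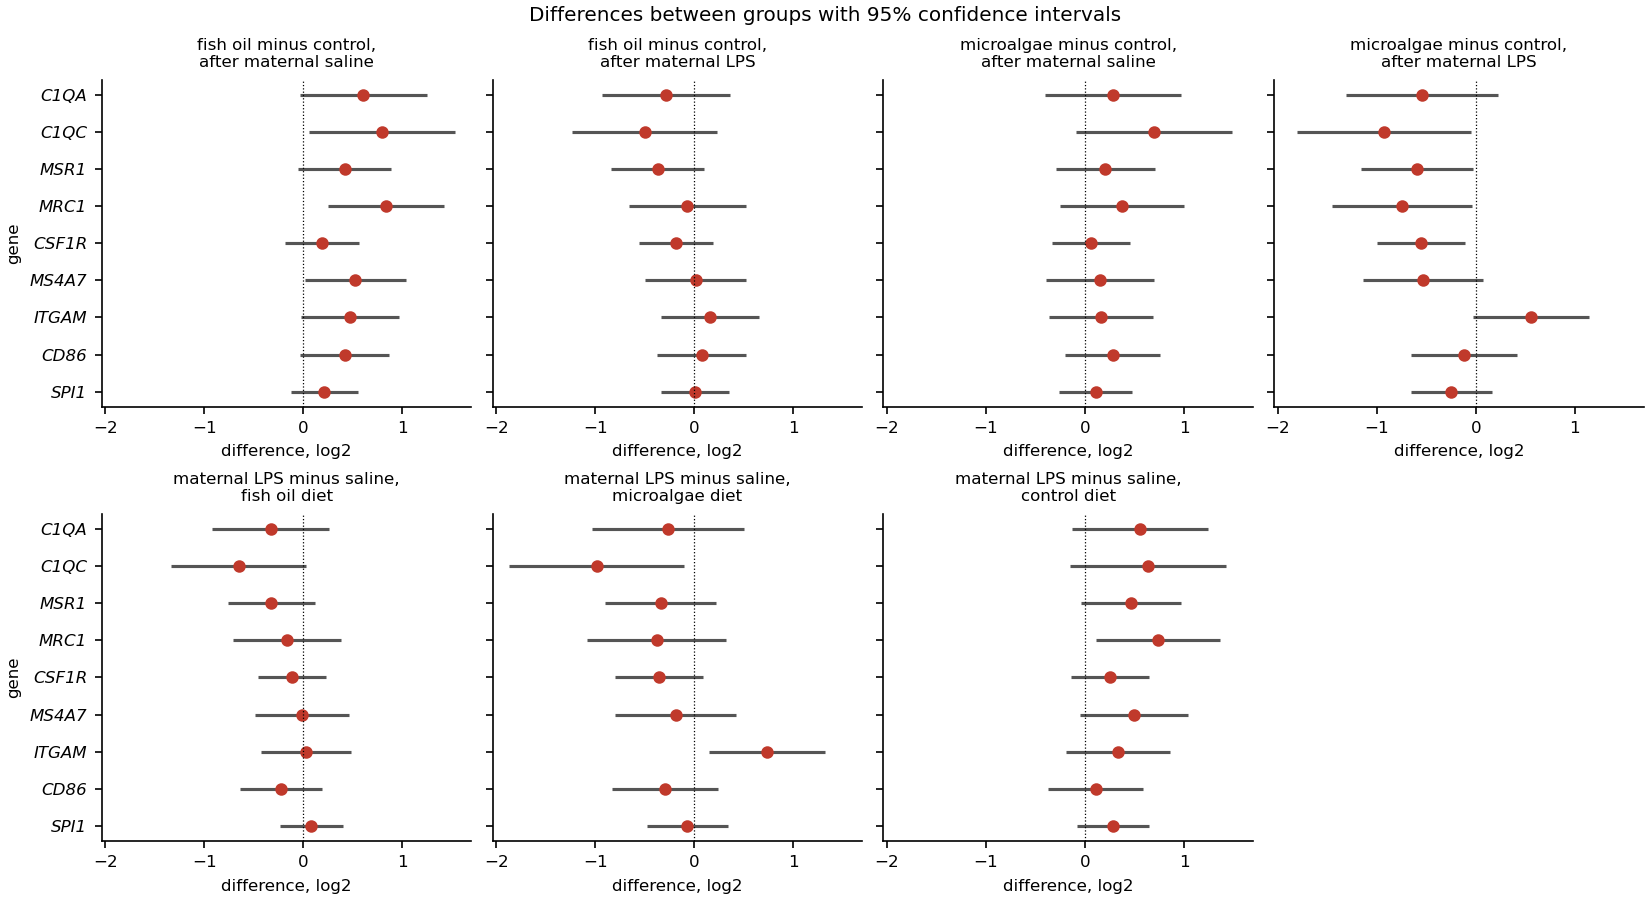
Differences in log2 signal (horizontal axes) for each member in 7 comparisons of groups, drawn as points with 95% confidence intervals from the limma fit over all 19 arrays; the dotted line marks 0. All 9 points lie right of 0 for fish oil and for microalgae against control after maternal saline. The same holds for maternal LPS against saline in the control diet. These comparisons share the control saline glands (piglets 8, 14 and 21). ITGAM lies opposite to most members in both comparisons that involve the microalgae glands after maternal LPS.

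The difference between these effects of maternal LPS was itself tested as an interaction. The effect in fish oil minus that in the control diet was below 0 for 9 of 9 members, with a median of -0.51 log2, where all probe sets had -0.0019. Without piglet 18 that median was -0.31, still with 9 of 9 below 0. It was -1.29 ± 0.50 for C1QC, -0.79 ± 0.32 for MSR1 and -0.90 ± 0.40 for MRC1 (SE). These 3 members lay under an unadjusted limma p of 0.05, which 1.6% of all probe sets reached in this direction, and the adjusted p was 1 for each. The effect in microalgae minus that in the control diet was below 0 for 8 of 9 members, with a median of -0.68. It was -1.62 ± 0.56 for C1QC, -1.12 ± 0.45 for MRC1, -0.80 ± 0.36 for MSR1 and -0.61 ± 0.28 for CSF1R (SE), 4 members under an unadjusted 0.05, against 2.54% of all probe sets, with an adjusted limma p of 0.858 for each. ITGAM alone lay above 0, at 0.40 ± 0.37 (SE). Both interactions use the same 6 control-diet glands, so their likeness is no separate evidence. In the fish oil interaction 29 of the 38 other listed myeloid genes were also below 0, led by CTSS, the lysosomal protease cathepsin S, at -0.63 ± 0.27 (SE, limma, adjusted p = 1), while none passed the adjusted threshold.

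Microalgae was set against the control diet after maternal saline, with the same control saline glands (piglets 8, 14 and 21) as the fish oil comparison and the control-diet comparison of maternal LPS. Its result is therefore no separate evidence. It gave higher values for 9 of 9 members, by 0.059 to 0.70 log2, with a median of 0.21. Single glands moved it: without piglet 12 the median was 0.11 and 7 of 9 were higher, and without piglets 8, 14 or 21 in turn 8 of 9 were. The median was 0.45 without piglet 22, 0.32 without piglet 8 and 0.34 with array weights. C1QC was the only member without overlap, 1 of 9, against 3.59% of all probe sets, and differed by 0.70 ± 0.37 (SE). After maternal LPS 8 of 9 were lower with microalgae, with a median of -0.54. C1QC differed by -0.93 ± 0.42, MRC1 by -0.74 ± 0.33, MSR1 by -0.59 ± 0.27 and CSF1R by -0.55 ± 0.21 (SE), the 4 members under an unadjusted limma p of 0.05, against 1.59% of all probe sets. Both microalgae glands lay below all 3 control glands for 7 of 9 members, against 8.06% of all probe sets. These control glands (piglets 6, 16 and 17) also serve the control-diet comparison of maternal LPS and both interactions. With 2 microalgae glands, and with members that vary together, the 7 are no separate evidence. ITGAM was higher without overlap, by 0.56 ± 0.28 (SE), which 10.1% of all probe sets were. Endothelial genes had 10 of 11 lower values in the same comparison, with a list level of -0.29 to -0.077 in the microalgae glands and -0.05 to 0.06 in the control glands, and their part in the members' differences was not tested.

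The effects of challenge and of diet were also averaged over the other factor. Maternal LPS over the 3 diets gave higher values for 4 members and lower for 5, with a median of -0.012 log2, which changed sign with the gland left out, between -0.11 without piglet 22 and 0.065 without piglet 18. ITGAM had the largest difference, 0.37 ± 0.14 (SE, limma, adjusted p = 0.669), the only member under an unadjusted 0.05, which 3.37% of all probe sets reached in this direction. Fish oil over both challenges gave higher values than control for 9 of 9 members, with a median of 0.16 and a range of 0.0017 for CSF1R to 0.38 for MRC1. Without piglets 14, 16, 18 or 24 in turn 7 of 9 were higher, and without piglets 9, 10 or 17 in turn 8 of 9 were. The median was 0.064 without piglet 10, 0.096 without piglet 18 and 0.29 without piglet 13. Microalgae over both challenges gave lower values than control for 7 of 9, with a median of -0.13, which was -0.25 without piglet 12, -0.053 without piglet 22, -0.075 without piglet 23 and -0.086 without piglet 16. Fish oil against microalgae gave higher values for 8 of 9, with a median of 0.25, or 0.15 without piglet 22. MRC1 differed by 0.57 ± 0.21 and MS4A7 by 0.46 ± 0.18 (SE), both under an unadjusted limma p of 0.05, which 1.55% of all probe sets reached in this direction, and both with an adjusted p of 1.

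Most of the members varied together from gland to gland. Of their 36 pairs, 31 correlated positively over the 19 glands and 19 passed an adjusted p of 0.05 (permutation test of Pearson's r, two-sided, adjusted over the 36 pairs), and 21 passed with Spearman's rho. The median r was 0.54, while the median over all pairs of tested genes was 0.003, and 4.87% of those pairs reached 0.54. The closest pair was C1QA with CSF1R, with r = 0.85 and rho = 0.84 (permutation p = 1e-05 for r, the smallest the test can give, adjusted p = 0.00018). MSR1 with CSF1R followed at r = 0.84 and rho = 0.83 (permutation p = 1e-05, adjusted p = 0.00018), and C1QA with C1QC at r = 0.83 and rho = 0.74 (permutation p = 2e-05, adjusted p = 0.00024). MSR1 with CD86 reached r = 0.75 and rho = 0.74 (permutation p = 0.00026, adjusted p = 0.0023). The C1q chains, the growth factor receptor, the scavenger receptor and the costimulatory ligand thus ranked the glands alike in these pairs, with rho of 0.74 to 0.84.

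The correlations were repeated within groups, after the mean of each of the 6 groups was subtracted. The median r was then 0.40, which 14.7% of all gene pairs reached, and 8 of the 36 pairs passed the adjusted threshold. C1QA with CSF1R stood at 0.87, C1QA with C1QC at 0.83, MSR1 with CD86 at 0.81 and MSR1 with CSF1R at 0.80 (adjusted permutation p = 0.023, 0.020, 0.033 and 0.020 within groups). C1QC with MS4A7 was 0.75 (adjusted permutation p = 0.033). MSR1 with C1QC, 0.49 over all glands, was 0.18 within groups. Single glands weighed on these values. When the 2 glands farthest from the median of the first gene of each pair were left out, C1QA with CSF1R kept r = 0.82, C1QA with C1QC 0.80 and MSR1 with CSF1R 0.79, and 11 of 36 pairs passed. Without piglet 18, the highest gland for 5 of the 9 genes, 12 of 36 passed, and C1QA with MS4A7 had r = 0.49, where all glands gave 0.63.

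**Figure D3:**
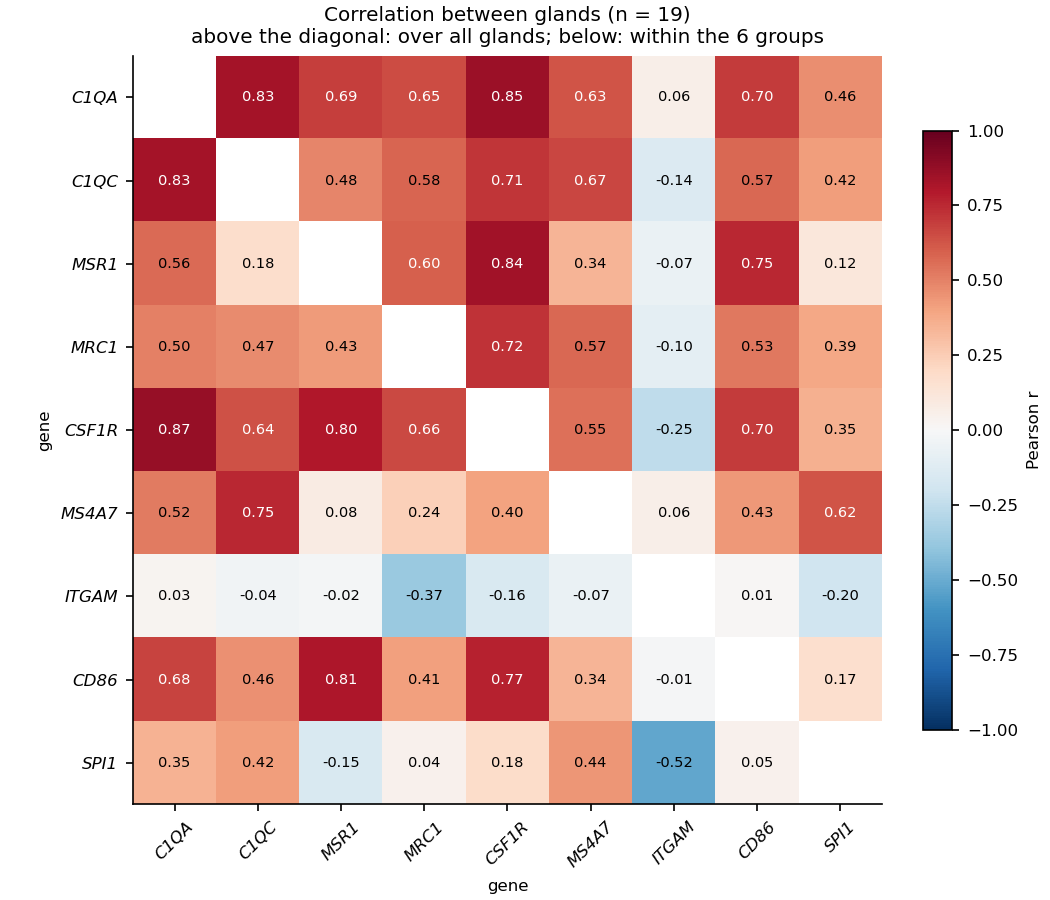
Pearson correlation of each pair of members between the 19 glands, by colour and number. Cells above the diagonal use the values as deposited and cells below it use values with the 6 group means subtracted; the darkest cells above the diagonal are C1QA with CSF1R (0.85), MSR1 with CSF1R (0.84) and C1QA with C1QC (0.83), and ITGAM has values of -0.25 to 0.06 above the diagonal and down to -0.52, with SPI1, below it.

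No pair with ITGAM passed the threshold. Its r ranged from -0.25 with CSF1R to 0.061 with C1QA and with MS4A7, and 0 of its 8 pairs passed. The 28 pairs without ITGAM had a median r of 0.59, and all 19 pairs past the threshold were among them. Its correlation with each of the 14 gene lists described below missed the adjusted threshold too. Its r was 0.35 with T and natural killer cell genes, 0.29 with neutrophil genes (rho = 0.10) and -0.095 with monocyte genes, with adjusted permutation p of 0.31, 0.44 and 0.79. SPI1 stood between, with 1 pair past the threshold, MS4A7 at r = 0.63 and rho = 0.64 (permutation p = 0.0038, adjusted p = 0.012). Its r with C1QA was 0.46 and with MSR1 0.12.

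**Figure D4:**
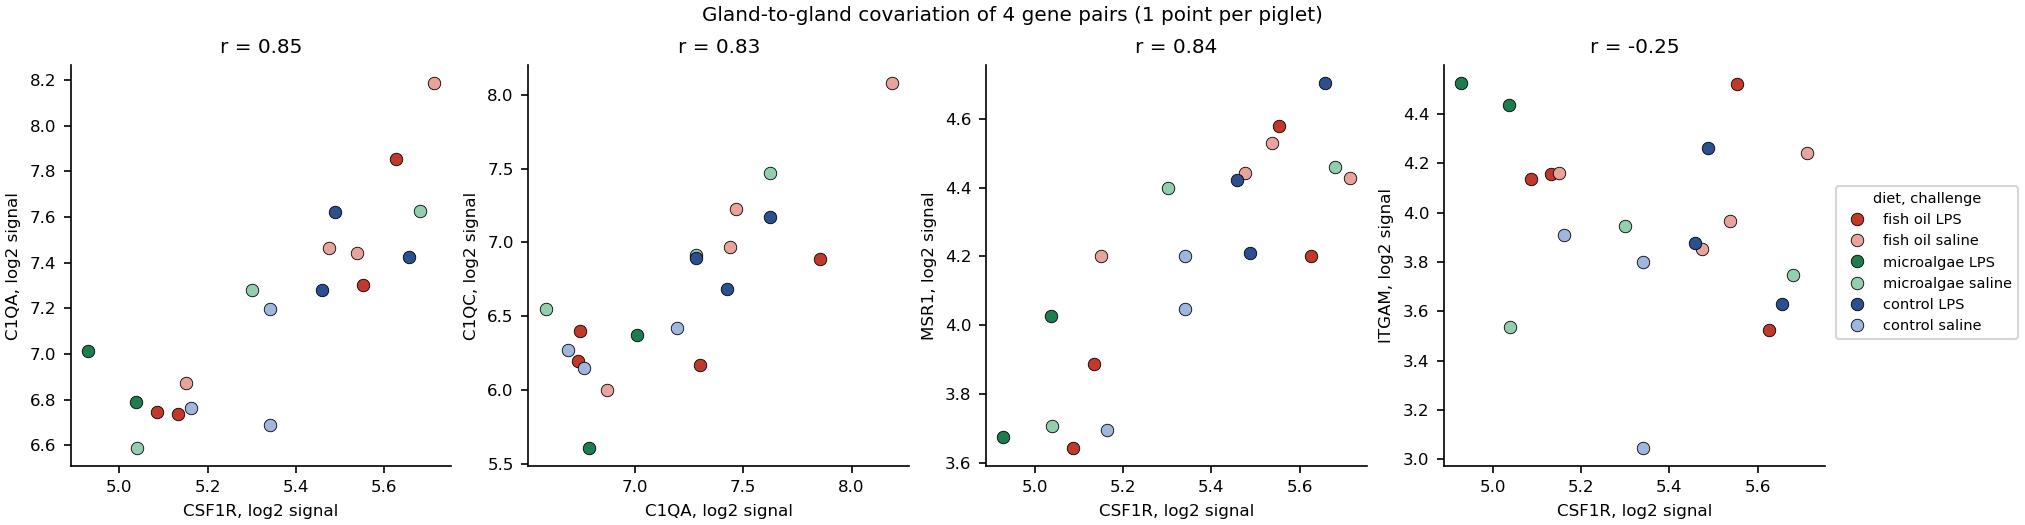
Log2 signals of 4 gene pairs plotted against each other, 1 point per piglet, coloured by maternal diet and challenge, with Pearson r over 19 glands above each panel. Glands high in CSF1R were high in C1QA (0.85) and MSR1 (0.84), with points of each diet spread along the line, whereas ITGAM against CSF1R shows no such line (-0.25) and its microalgae glands after maternal LPS lie at the upper left.

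When each member was standardised over the 19 glands and the 9 were averaged, piglet 18 (fish oil, maternal saline) was the highest at 1.47 SD units, with 9 of 9 members above their median. Piglets 10 (fish oil, maternal LPS) and 12 (microalgae, maternal saline) followed at 0.82 and 0.69. The lowest were piglets 22 (microalgae, maternal saline) at -1.07, 14 (control, maternal saline) at -0.94, 23 (microalgae, maternal LPS) at -0.78 and 21 (control, maternal saline) at -0.75. High and low glands stood side by side in the same groups: the microalgae saline group held piglet 12 and also piglet 22, and the fish oil saline group held piglet 18 and also piglet 13, at -0.38.

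The genes whose values most resembled the mean of the members within groups were named by rank among the tested genes with a probe set of their own. Their r describes 19 glands and carries no test, and all genes of a gland share its array. Apart from an unnamed locus, LOC100524999 (r = 0.97), they were C1QB, the remaining chain of C1q (0.93), CD53, a tetraspanin of white blood cells (0.91), and SLA-DRA, a chain of the pig's MHC class II molecule that presents antigen to T helper cells (0.90). PIK3AP1, a signalling adaptor of immune cells (0.87), TFEC, a transcription factor expressed in macrophages (0.87), UBD, a ubiquitin-like protein induced by interferon and TNF (0.87), TAPBP, which loads MHC class I (0.86), TMEM140 (0.86) and LOC100516957 (0.85) completed the first 10. The most opposed were AHCTF1, a nuclear pore assembly factor (-0.91), MIR202 (-0.84), PLEKHG3 (-0.83), CUTC (-0.81) and ZC3H14 (-0.80). An r of 0.70 or more was reached by 79 genes, 0.739% of those tested.

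For single members, the most similar gene within groups was LOC100524999 for C1QA (0.94) and SLA-DQB1, another MHC class II chain, for CSF1R (0.92). It was RELA, an NF-kB subunit, for C1QC (0.89), NRN1 for MSR1 (0.92), HDGF for MRC1 (0.86), and ATF4, a stress-response transcription factor, for MS4A7 (0.83). CHRNA7, a nicotinic acetylcholine receptor subunit, was closest to CD86 (0.93), SLC25A47 to ITGAM (0.82) and GALNT18 to SPI1 (0.87). Each was picked as the highest among 10699 tested probe sets, the members left aside, and the r over all glands was lower in every case, for example 0.60 for C1QC with RELA and 0.54 for MSR1 with NRN1.

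Among genes of the fixed lists, VSIG4, a complement receptor of resident macrophages, had a within-group r of 0.83 to the members' mean, FCER1G 0.76, the T cell ligands PDCD1LG2 and CD80 0.76 and 0.73, and CD5L, a secreted macrophage protein, 0.71. These are the upper end of their lists: the 9 scavenger and uptake receptors had a median of 0.33, with SIGLEC1 at 0.042 and STAB1 at 0.12, and the 12 other macrophage genes a median of 0.47, with NCF1 at -0.13. Monocyte genes had a median of -0.15, with VCAN at -0.42 and CD14, the LPS co-receptor, at -0.026. Neutrophil genes had a median of 0.16, cortex genes 0.09, medulla genes 0.16 and fibroblast genes 0.006. T and natural killer cell genes had a median of 0.32, from 0.027 for LCK to 0.73 for CD2. In that list CD2, NKG7 (0.71) and GZMA (0.71) were level with CD80 and CD5L. B cell genes had a median of 0.38 and the 2 red blood cell genes 0.40. The median over all tested genes was 0.007.

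**Figure D5:**
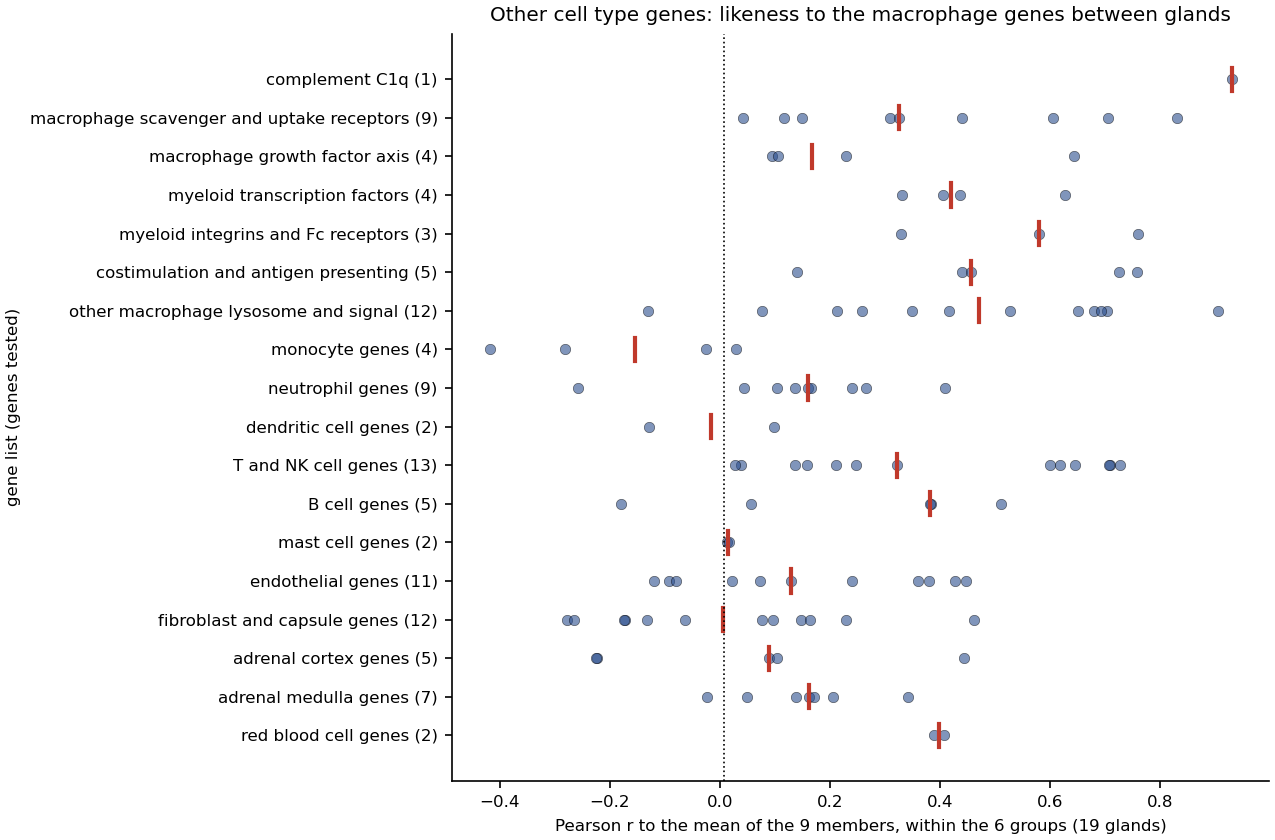
Within-group Pearson r (horizontal axis) between single genes and the mean of the 9 members over 19 glands, by gene list, with the number of genes tested in brackets. Each point is a gene, the vertical bar is the list's median and the dotted line is the median over all tested genes (0.007); C1QB, CD53 and VSIG4 lie farthest right, and the monocyte list has the lowest median, -0.15.

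The mean level of each of 14 lists was also set against each member, 126 correlations in all, of which 15 passed an adjusted permutation p of 0.05. The list of other macrophage genes correlated with C1QA (r = 0.84, rho = 0.83), CD86 (0.74, 0.78), C1QC (0.65, 0.61), CSF1R (0.65, 0.65) and MSR1 (0.64, 0.63). The scavenger receptor list correlated with CSF1R (r = 0.81, rho = 0.78), MSR1 (0.81, 0.80), CD86 (0.78, 0.79) and C1QA (0.77, 0.82). The costimulation list correlated with CD86 (r = 0.78, rho = 0.82), MSR1 (0.68, 0.67) and C1QA (0.63, 0.61). Outside the macrophage lists, T and natural killer cell genes correlated with CD86 (r = 0.66, rho = 0.65) and C1QA (0.63, 0.63), and endothelial genes with MRC1 (r = 0.60, rho = 0.58). Endothelial genes were nearly as close to CSF1R (r = 0.58, rho = 0.56) and MS4A7 (0.56, 0.70), which just missed the adjusted threshold for r. For the 15 that passed, the unadjusted permutation p ranged from 3e-05 to 0.0055 and the adjusted p from 0.0029 to 0.046. With the 2 farthest glands left out their r was 0.50 to 0.83. Within groups the T and natural killer cell list had r of 0.82 with C1QA, 0.805 with CSF1R, 0.75 with MSR1 and 0.70 with CD86. With the same members in that order, the list of other macrophage genes had 0.85, 0.73, 0.64 and 0.67. The scavenger receptor list had 0.75, 0.89, 0.815 and 0.83. With MS4A7, ITGAM and SPI1 the T and natural killer cell list had 0.22, 0.175 and 0.037 within groups. The monocyte, neutrophil, B cell, fibroblast, cortex and medulla lists passed with none of the 9 members, and neither did the lists of growth factor genes, myeloid transcription factors and integrins with Fc receptors. Over all glands, none of 18 correlations of the members with the array median or the array interquartile range passed either. The lowest adjusted permutation p was 0.415, with r of -0.43 (MSR1 with the interquartile range) to 0.45 (ITGAM with the array median). Within groups, r with the interquartile range was -0.68 for MSR1 and -0.565 for CD86 (unadjusted permutation p = 0.021 and 0.069). The other members had -0.33 (ITGAM) to 0.44 (SPI1). With the array median, MSR1 and CD86 had 0.59 and 0.54 within groups. With the interquartile range removed from the values over all glands, 23 of 36 member pairs passed, with a median r of 0.58. The part of array spread in the pair MSR1 with CD86 was not tested on its own.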

How the data were processed

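The deposited values are log2 signals for each probe set and piglet, between 0.263 and 13.5, a range from which base 2 was taken. Per the submitters' processing notes the authors used Transcriptome Analysis Console 4.0; their normalization was not given in the sources used here. Array medians lay between 4.38 and 4.52. The array annotation, which can be old, gives 1 symbol to 13157 probe sets, several to 523 and none to 13878; 7 symbols were updated by gene ID. Array control probe sets were not identified or removed. Probe sets with a mean in the lowest 25% (6890) were left out. A model with 1 mean per group was fitted in limma 3.58.1 (R 4.3.3; intensity trend, 13 residual and 4.62 prior degrees of freedom) to the other 20668, with two-sided tests and p-values adjusted by Benjamini-Hochberg over the whole table. Correlations were tested with 100000 permutations (Python 3.11.15, numpy 2.4.6), within groups for the within-group r. The workflow was tested on simulated data. No replicate numbers pair the piglets.

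The members, gene lists and comparisons were chosen with earlier results of these data known. All 9 members are named in every comparison, and of each list at most 3 genes with the smallest p. The 10 genes most like the members' mean and the 5 most opposed are named, with the closest gene of each member. Genes named for their likeness among the lists were chosen after their values were seen. Alternatives were other filters, quantile normalization, median centring, array weights, array spread or a medulla gene score as covariate, no intensity trend, and leaving out piglets.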

Additional observations from a re-analysis of the deposited data

How the results depend on the processing

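No member passed the adjusted threshold under any alternative filter, normalization, weighting or covariate, or without any 1 piglet. The 9 members in 6 comparisons gave 54 differences, and of 1494 recomputed values 1474 kept their direction. The 20 that changed sign lie in 6 small differences. For maternal LPS against saline in the fish oil diet, MS4A7 was 0.036 with array weights, 0.044 with the array interquartile range and 0.0051 with the medulla score as covariate, and 0.059 without piglets 6 and 24, and ranged from -0.19 to 0.18 without 1 piglet. ITGAM was -0.020, -0.018, -0.071 and -0.12 in the same order, and -0.12 to 0.21 without 1 piglet. Without 1 piglet, MRC1 ranged from -0.34 to 0.011 and SPI1 from -0.079 to 0.19. CD86 was -0.0054 without piglets 6 and 24 for maternal LPS in the control diet, with a range of -0.0054 to 0.29 without 1 piglet, and for microalgae against control after maternal LPS it ranged from -0.30 to 0.059. The number of correlated pairs was 8 with group means removed, 11 without the 2 farthest piglets, and 12 (without piglet 18) to 20 (without piglet 24) without 1 piglet. It was 18 with quantile normalization, 20 with median centring and 23 with the array interquartile range removed. In other comparisons the number of members higher moved without 1 piglet, to 7 from 9 for fish oil against control over both challenges and for microalgae against control after maternal saline, and to 2 from 4 for fish oil against control after maternal LPS. The cause of these changes was not tested. For fish oil against control after maternal saline, all 9 members stayed higher in each setting that tested all 9, with a median of 0.38 (without piglet 18) to 0.56 (without piglet 8). For maternal LPS in the control diet 8 or 9 did, with a median of 0.35 to 0.53. With the lowest 50% left out, 6 members were tested. Averaging probe sets changed nothing, since each member has 1. Leaving out a microalgae piglet after maternal LPS leaves 1, assumed to vary like the other groups. No paired analysis was possible because replicate numbers only name piglets. The number of arrays limits the precision, with a median SE of 0.12 log2 for maternal LPS.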

Other observations

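In the fish oil diet, other ligands with which antigen-presenting cells steer T cells had lower values after maternal LPS than after saline. CD274, which encodes the inhibitory ligand PD-L1, differed by -1.44 ± 0.39 log2 between maternal LPS and saline (SE, limma, adjusted p = 0.403), CD80 by -0.77 ± 0.33 and PDCD1LG2, the ligand PD-L2, by -0.63 ± 0.28, while CD86 differed by -0.23 ± 0.20. Of the costimulation list, which leaves out CD86, all 5 genes tested were lower, with a median of -0.63. Over the 3 diets all 5 were lower too, with a median of -0.22. In the control diet 3 were lower and 2 higher, from -0.39 to 0.21. In the microalgae diet 3 were lower and 2 higher, from -0.67 to 0.061. In the fish oil diet SIGLEC1, a sialic acid receptor of macrophages, differed by -0.40 ± 0.17 (SE, limma, adjusted p = 0.999). It was the lowest of the 9 scavenger and uptake receptors tested, of which 6 were below 0 and 3 above, with a median of -0.063 and a highest value of 0.225. None of the genes named here passed the adjusted threshold, and the difference between them was not tested. CXCR2, the chemokine receptor of neutrophils, had an interaction of -0.94 ± 0.31 for the maternal LPS effect in fish oil minus that in the control diet (SE, limma, adjusted p = 1). It was the lowest of the 9 neutrophil genes tested, of which 6 were below 0 and 3 above, with a median of -0.18 and a highest value of 0.37 for PGLYRP1.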
